A study of Mus musculus with 9 samples.

Results

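Transthyretin, encoded by Ttr, was examined together with 9 other genes known from the epithelium of the choroid plexus: Enpp2, Folr1, Kl, Clic6, Kcnj13, Otx2, Aqp1, Sostdc1 and Prlr. These 10 symbols were looked up among the array's probe sets that carry a single gene symbol, and the brightest probe set by mean over the 9 arrays stood for the gene. Of the 10 genes 8 were measured, among 19937 genes in all. Enpp2 and Prlr were not analysed here. Each of the 8 had 1 probe set. Ttr was chosen by its measured intensity in these same arrays, high in both brain sorts and low in monocytes, so its levels are a description and carry no test. The other genes were listed for their known place in the choroid plexus, and the question was whether they follow Ttr.

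The arrays measured RNA of cells sorted from wild-type C57BL/6 mice, in 3 groups of 3 arrays: microglia sorted as Ly6C-high, microglia sorted as Ly6C-low, and monocytes from spleen. The labels name the Ly6C-high cells MgSCs and the Ly6C-low cells bulk microglia cells, and they mark Ly6C with a dash for the monocytes. No treatment and no age are named for any group. Mice were perfused with saline, and brains were minced, digested with collagenase and DNase and enriched for leukocytes on Percoll before sorting on CD45, CD11b, Ly6C and other surface proteins of myeloid cells. Neither the gates nor the number of pooled mice is stated. Whether replicates are separate animals is not stated, and p-values reflect only the spread between these samples, part of which may be technical. Xist, expressed from the inactive X chromosome of females, measured 9.19, 4.43 and 8.58 in Ly6C-high, 9.97, 10.76 and 4.26 in Ly6C-low and 4.13, 4.19 and 10.28 in monocyte replicates 1, 2 and 3. The Y-linked Eif2s3y measured 5.69, 8.12 and 7.92, then 7.83, 7.23 and 8.78, then 8.70, 8.74 and 4.03 in the same order. The arrays of each group thus did not all hold RNA of the same mice, and some were high in both genes.

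The choroid plexus is a folded epithelium in the brain ventricles that secretes cerebrospinal fluid over a core of leaky vessels. Its cells make and secrete transthyretin, a carrier of thyroxine and of the retinol-binding protein. They also carry the folate receptor, klotho, a water channel and several ion channels, under the control of transcription factors such as Otx2. Transthyretin is otherwise known mainly from liver, retinal pigment epithelium and pancreatic islets.

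Levels are deposited log2 intensities of a probe set, summarised per group by mean ± SD (n = 3), and they are compared only within a gene. Array medians ran from 5.83 to 5.96. The Ly6C-high arrays were the least alike, with pairwise correlations across genes of 0.909 to 0.946; the monocyte pairs reached 0.986 to 0.992 and the Ly6C-low pairs 0.977 to 0.989. Ly6C-high replicate 1 had the narrowest interquartile range (2.24, against 2.62 to 2.91) and held the highest of the 9 values for 32.7% of all genes. Of 17 measured brain endothelium markers 17 were higher in Ly6C-high than in Ly6C-low microglia (limma, adjusted p under 0.05), and of 11 homeostatic microglia markers 11 were lower. Against monocytes, 8 of these 11 microglia markers were higher in Ly6C-high cells and 1 was lower, and 17 of 17 endothelium markers were higher. Of all genes, 4.49% were called higher and 11% lower in Ly6C-high than in Ly6C-low microglia. In Ly6C-high microglia against monocytes these shares were 6.88% and 14.6%. Group names here follow the labels only.

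Ttr stood at 12.96, 12.52 and 12.36 in Ly6C-high replicates 1, 2 and 3. It stood at 13.02, 12.59 and 11.88 in Ly6C-low replicates 1, 2 and 3, and at 5.09, 5.60 and 4.81 in those of monocytes. All 6 brain arrays lay far above all 3 monocyte arrays, and the brain groups overlapped. The mean was 12.61 ± 0.31 for the Ly6C-high arrays, 12.50 ± 0.58 for the Ly6C-low arrays and 5.17 ± 0.40 for monocytes. The log2 difference from monocytes was 7.44 ± 0.32 (SE) for Ly6C-high and 7.33 ± 0.32 for Ly6C-low microglia, which is 174-fold and 161-fold. Both differences were the largest of all 19937 genes, ahead of the organic anion transporter Slco1a4 (7.22) in the Ly6C-high and the microglia gene Tmem119 (5.70) in the Ly6C-low comparison. The 2 comparisons share the monocyte arrays. Ttr lay near the top of the scale in the brain arrays, whose highest values were 13.69 to 13.81, so differences among them may be compressed. Between the brain sorts, in both of which Ttr was chosen to be high, the log2 difference was 0.11 ± 0.32 (95% interval -0.61 to 0.84). The direction of that small difference turned without Ly6C-high replicate 1 (-0.06) and without Ly6C-low replicate 3 (-0.20).

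**Figure D1:**
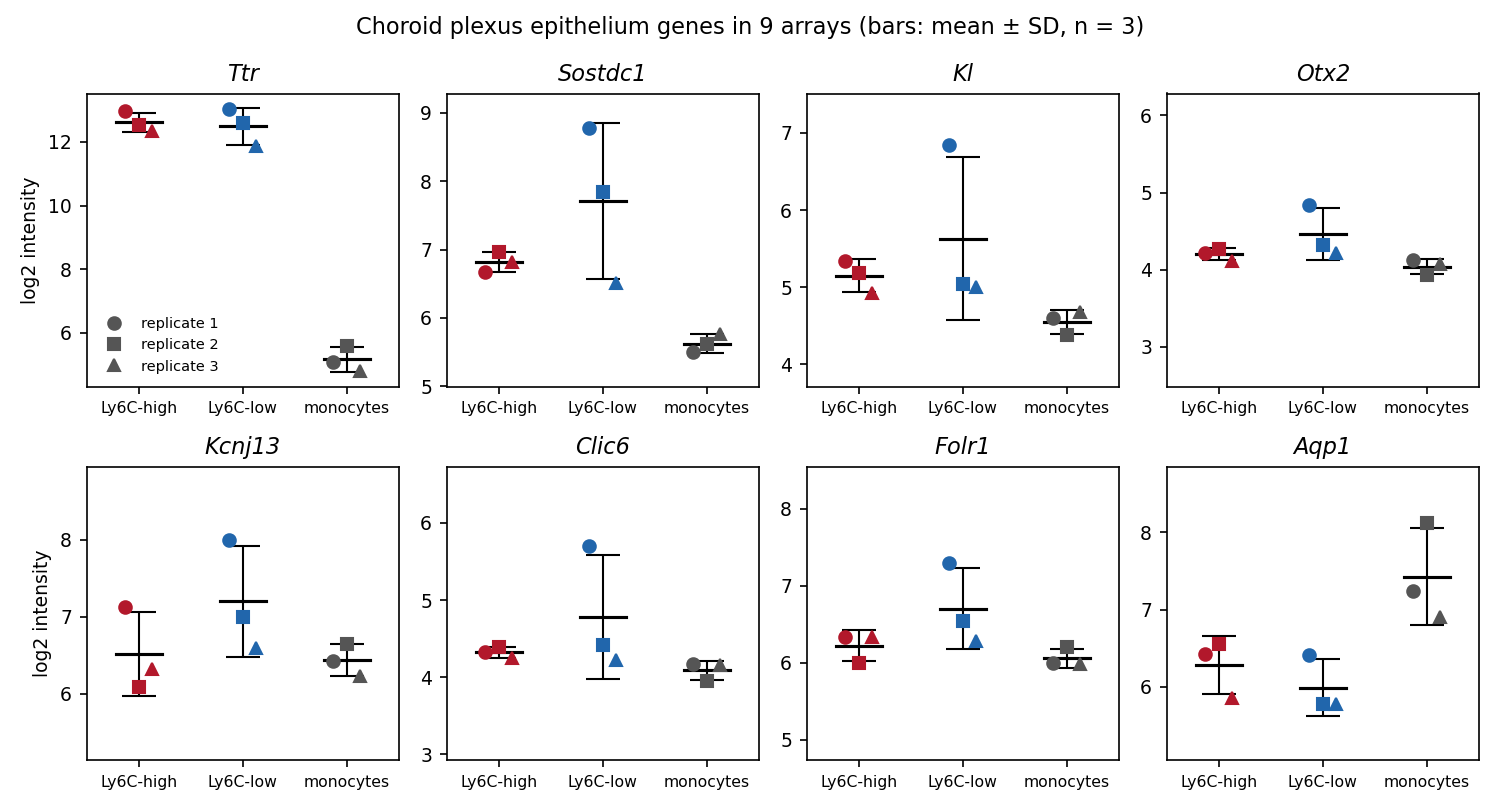
Log2 intensity of the 8 measured choroid plexus genes (vertical axes; the axis of Ttr covers a wider range than the others) in the 3 sorted groups, with a point per array shaped by replicate number and bars for mean ± SD (n = 3). Ttr is at 11.88 or above in all 6 brain arrays, while in 6 of the other 7 genes Ly6C-low replicate 1 stands above the remaining arrays.

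Sostdc1, a secreted antagonist of BMP and Wnt signalling, came nearest to Ttr among the 7 other genes. It measured 6.67, 6.96 and 6.82 in the Ly6C-high replicates, 8.78, 7.84 and 6.51 in the Ly6C-low replicates, and 5.50, 5.62 and 5.77 in the monocyte replicates. All brain arrays were above all monocyte arrays, and the Ly6C-low replicates spread widely around the Ly6C-high ones. The gene rose in Ly6C-low microglia against monocytes by 2.08 ± 0.47 on the log2 scale (4.24-fold, adjusted p = 0.0185). That call ended without Ly6C-low replicate 2 (adjusted p = 0.0649), monocyte replicate 1 (0.0697) or monocyte replicate 2 (0.0617). It held without Ly6C-low replicate 1 (log2 difference 1.55, adjusted p = 0.0282). In Ly6C-high microglia the difference from monocytes was 1.19 ± 0.47 and did not pass (adjusted p = 0.102). It passed without Ly6C-low replicate 1 (0.0338), without Ly6C-low replicate 3 (0.0136) or with only the 6 arrays compared (0.0031), settings that leave the difference as it is and change the estimated spread.

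Kl encodes klotho, a membrane protein that serves as co-receptor for the hormone FGF23. It measured 5.34, 5.18 and 4.92 in the Ly6C-high replicates, 6.85, 5.04 and 5.002 in the Ly6C-low replicates, and 4.60, 4.37 and 4.68 in the monocyte replicates. Ly6C-low replicate 1 stood apart, and replicates 2 and 3 lay within the range of the Ly6C-high arrays. Kcnj13, an inward rectifier potassium channel of the apical membrane, measured 7.13, 6.08 and 6.33 in Ly6C-high, 7.999, 7.003 and 6.60 in Ly6C-low and 6.42, 6.65 and 6.23 in monocyte replicates. Only Ly6C-low replicates 1 and 2 and Ly6C-high replicate 1 were above the highest monocyte array. Kcnj13 lies inside the larger gene Gigyf2 in the RefSeq gene table. Whether its probes could read Gigyf2 RNA was not tested, and Gigyf2 itself measured 8.23 in Ly6C-low replicate 1 and 7.43 to 7.96 in the other arrays.

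The 250 bases before the RefSeq start of these genes are shown because both were highest in the same array and their promoters differ in base composition. The sequences are from the RefSeq table of GRCm38.p6, on the strand of the gene, 5′ to 3′, with the TATAAA motif in capitals.
Kl, chr5:150952357-150952606, plus strand: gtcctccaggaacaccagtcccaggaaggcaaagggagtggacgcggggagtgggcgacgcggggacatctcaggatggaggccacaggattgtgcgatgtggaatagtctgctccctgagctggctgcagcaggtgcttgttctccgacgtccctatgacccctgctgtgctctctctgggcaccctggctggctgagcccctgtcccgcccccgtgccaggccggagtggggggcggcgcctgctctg
Kcnj13, chr1:87394730-87394979, minus strand: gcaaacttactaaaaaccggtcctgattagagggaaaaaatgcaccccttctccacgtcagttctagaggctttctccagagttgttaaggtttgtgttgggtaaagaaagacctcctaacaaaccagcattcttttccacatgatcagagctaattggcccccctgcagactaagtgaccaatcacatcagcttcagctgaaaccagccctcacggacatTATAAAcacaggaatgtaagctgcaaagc
The Kl stretch was 66.8% G and C with 13 CG dinucleotides, and the Kcnj13 stretch 45.2% with 3, against medians of 52.4% and 6 over all 32851 promoter entries. TATAAA was searched on both strands. It was found in Kcnj13 on the strand of the gene, with its first base 29 bases before the start, and not in Kl. On either strand, 12.4% of all entries hold it. TAATCC, the core motif bound by Otx2-type homeodomain proteins, was searched on both strands and found in neither gene, and 6.25% of all entries hold it. Of the 8 measured genes 4 were in the promoter table (Kl, Kcnj13, Otx2 and Aqp1, with 7 entries), and TAATCC occurred in 1 of the Otx2 entries.

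Otx2, the homeodomain factor that specifies the plexus epithelium, measured 4.21, 4.27 and 4.12 in the Ly6C-high replicates. It measured 4.84, 4.32 and 4.21 in the Ly6C-low replicates and 4.12, 3.93 and 4.08 in the monocyte replicates. The probe set was dim and its values lay close together, with Ly6C-low replicate 1 the highest. Clic6, a chloride intracellular channel protein, measured 4.33, 4.39 and 4.25 in Ly6C-high, 5.70, 4.42 and 4.22 in Ly6C-low and 4.17, 3.95 and 4.16 in monocyte replicates. Apart from Ly6C-low replicate 1 the 8 other arrays lay between 3.95 and 4.42. Folr1, the folate receptor that carries folate into the cerebrospinal fluid, measured 6.34, 6.00 and 6.33 in Ly6C-high replicates. It measured 7.29, 6.54 and 6.28 in Ly6C-low replicates and 6.00, 6.20 and 5.98 in monocyte replicates, again with Ly6C-low replicate 1 the highest. Folr1 and Ttr each overlap a predicted gene in the RefSeq table (Gm35597 and Gm16090), and the array's strand use is not given in the sources used here.

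Aqp1, the water channel of the plexus surface that is also known from red cells and some endothelia, ran the other way. It measured 6.43, 6.55 and 5.85 in Ly6C-high, 6.41, 5.77 and 5.78 in Ly6C-low and 7.24, 8.12 and 6.91 in monocyte replicates. All 3 monocyte arrays were above all 6 brain arrays. Aqp1 fell against monocytes by 1.15 ± 0.34 on the log2 scale in Ly6C-high (adjusted p = 0.0422) and by 1.44 ± 0.34 in Ly6C-low microglia (adjusted p = 0.0222). The Ly6C-high call was lost in 9 of 19 alternatives, among them without Ly6C-high replicate 1 (0.0749), Ly6C-high replicate 3 (0.101), Ly6C-low replicate 2 (0.0619), Ly6C-low replicate 3 (0.0623), monocyte replicate 1 (0.0868) and monocyte replicate 2 (0.113). The Ly6C-low call was lost without Ly6C-low replicate 2 (0.0817), Ly6C-low replicate 3 (0.0807), monocyte replicate 1 (0.0556) or monocyte replicate 2 (0.0538).

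In the ordering of group means, Kl, Kcnj13, Clic6, Folr1, Otx2 and Sostdc1 ran from Ly6C-low over Ly6C-high microglia to monocytes. The means of Kl were 5.63 ± 1.05, 5.15 ± 0.21 and 4.55 ± 0.16 in that order, those of Kcnj13 7.20 ± 0.72, 6.51 ± 0.55 and 6.44 ± 0.21, and those of Clic6 4.78 ± 0.80, 4.32 ± 0.07 and 4.09 ± 0.12. Folr1 stood at 6.70 ± 0.53, 6.22 ± 0.20 and 6.06 ± 0.12, Otx2 at 4.46 ± 0.34, 4.20 ± 0.08 and 4.04 ± 0.10, and Sostdc1 at 7.71 ± 1.14, 6.82 ± 0.14 and 5.63 ± 0.14. In each of these 6 genes the arrays of the neighbouring Ly6C-low and Ly6C-high groups overlapped. The Ly6C-high and monocyte arrays overlapped for Kcnj13, Folr1 and Otx2 and did not for Kl, Clic6 and Sostdc1. Counted over all 8 genes, the arrays of the brain sorts were apart for 0 of 8, against 30.1% of all genes. The Ly6C-high and monocyte arrays were apart for 5 of 8 (45.9% of all genes), with 4 higher in Ly6C-high microglia (24.1%) and Aqp1 lower. The Ly6C-low and monocyte arrays were apart for 7 of 8 (42.3% of all genes), all but Kcnj13, with 6 higher (23.2%). Ttr, chosen by its levels, is among the 8 genes of these counts.

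Tested over all genes, few of the 7 other choroid plexus genes differed between the groups. Between Ly6C-high and Ly6C-low microglia limma called 0 of these 7, against 15.4% of all genes. At an unadjusted p under 0.05 the count was also 0, against 28.2% of all genes, and the adjusted p-values ran from 0.241 to 0.595. The median log2 difference of the 7 genes was -0.48, against 0.05 over all genes, and the 95% intervals of Sostdc1 (-1.96 to 0.18), Kcnj13 (-1.55 to 0.18) and Kl (-1.48 to 0.52) leave room for a lower level in Ly6C-high microglia. Without Ly6C-low replicate 3, Sostdc1 was called lower in Ly6C-high microglia (-1.49, adjusted p = 0.0124). Without Ly6C-low replicate 1 the differences of Kl and Clic6 moved to 0.13 and 0.0009.

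Against monocytes, 1 of the 7 genes other than Ttr was called in Ly6C-high microglia (Aqp1, lower), where 21.5% of all genes were called. In Ly6C-low microglia 2 of 7 were called (Sostdc1 higher and Aqp1 lower), against 14.5% of all genes. The first count was not above its share and the second was, each on only 7 genes. At an unadjusted p under 0.05 the counts were 2 and 5 of 7, against 37.8% and 25.6% of all genes. Only the latter exceeded its share. The median log2 difference of the 7 genes was 0.16 in Ly6C-high and 0.69 in Ly6C-low microglia, against 0.09 and 0.05 over all genes. Adjusted p-values of the remaining 5 genes in Ly6C-low microglia ran from 0.132 to 0.257, with log2 differences of 1.08 ± 0.44 for Kl, 0.76 ± 0.38 for Kcnj13, 0.69 ± 0.33 for Clic6, 0.64 ± 0.24 for Folr1 and 0.42 ± 0.17 for Otx2. In Ly6C-high microglia the same genes differed from monocytes by 0.60 ± 0.44, 0.08 ± 0.38, 0.23 ± 0.33, 0.16 ± 0.24 and 0.16 ± 0.17, and the directions of Kcnj13 and Otx2 turned under some alternatives. Kl passed there without Ly6C-low replicate 1 (0.60, adjusted p = 0.0252), so that 3 of 7 genes were then called. In bulk RNA, fewer cells of a type and less RNA per cell cannot be told apart.

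**Figure D2:**
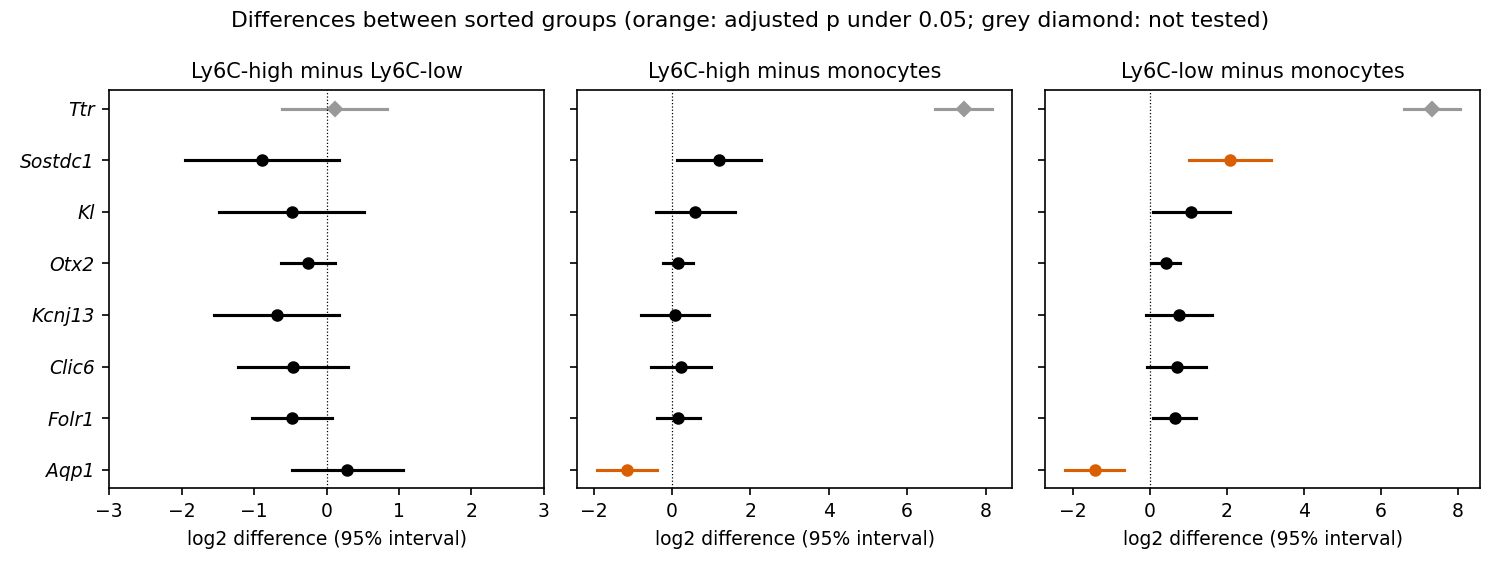
Log2 differences of the 8 genes (rows) in the 3 comparisons, with 95% intervals from the limma fit of 9 arrays; orange marks an adjusted p under 0.05 and the grey diamonds of Ttr carry no test. Ttr lies at 7.44 and 7.33 against monocytes and at 0.11 between the brain sorts, while the other genes lie between -1.44 and 2.08 throughout; the horizontal scale of the left panel is narrower.

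Except for Aqp1, the SD of the choroid plexus genes was largest among the Ly6C-low arrays (7 of 8, against 19.4% of all genes). Among these arrays they shared a high replicate 1. The pattern was noticed in the values, so the following counts are a description. Of the 8 genes 7, all but Aqp1, were highest of all 9 arrays in Ly6C-low replicate 1, against 9.49% of all genes. With quantile normalization or cyclic loess the count was 6 of 8. In all 8 genes replicate 1 was the highest of the 3 Ly6C-low arrays, against 43.6% of all genes. Above the mean of Ly6C-low replicates 2 and 3, replicate 1 was higher by 1.83 on the log2 scale for Kl, 1.61 for Sostdc1, 1.38 for Clic6 and 1.20 for Kcnj13, and 0.677% of all genes reached 1 or more. It was higher by 0.88 for Folr1, 0.79 for Ttr, 0.64 for Aqp1 and 0.57 for Otx2. Ranked by this difference among 19937 genes, Kl was number 16, Sostdc1 29, Clic6 55, Kcnj13 82, Folr1 197 and Ttr 268. In Ly6C-low replicate 3, the log2 difference from the gene's own monocyte mean was 0.13 for Clic6, 0.16 for Kcnj13 and 0.17 for Otx2. It was 0.22 for Folr1, 0.45 for Kl, 0.88 for Sostdc1, 6.71 for Ttr and -1.64 for Aqp1. Xist was high in Ly6C-low replicates 1 and 2 and low in replicate 3, and the part of this difference in the excess of replicate 1 was not tested.

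Markers of other cell types were read in the same way. Ly6C-low replicate 1 was the highest Ly6C-low array for 15 of 17 brain endothelium markers and 10 of 10 pericyte and smooth muscle markers, with median excesses of 1.01 and 0.73. The mean of the endothelium markers was 7.53, 6.95 and 6.25 in Ly6C-low replicates 1, 2 and 3, while it ran from 10.34 to 10.84 over Ly6C-high and from 6.19 to 6.27 over monocyte arrays. None of the 17 endothelium markers was highest of the 9 arrays in Ly6C-low replicate 1, and all peaked in a Ly6C-high array. The choroid plexus genes other than Aqp1 peaked in Ly6C-low replicate 1, where some markers of other cell types peaked too. Ependyma markers, of the ciliated lining next to the plexus, had a median excess of 0.28 (9 of 10 highest in replicate 1 among the Ly6C-low arrays), astrocytes 0.20, oligodendrocytes 0.38 and neurons 0.20. Fibroblast markers had a median excess of 0.32, hepatocyte markers 0.14 and retinal pigment epithelium markers 0.10. Ly6C-low replicate 1 was the highest of the 9 arrays for 5 of 10 ependyma markers, against 9.49% of all genes. It was so for 3 of 9 oligodendrocyte, 3 of 9 hepatocyte, 2 of 9 astrocyte, 2 of 9 neuron and 2 of 8 fibroblast markers. For pigment epithelium the count was 1 of 8, and for pericytes and smooth muscle 0 of 10. The part of these cell types in the levels of Ttr and the other genes was not tested. Of 9 hepatocyte markers, the apolipoproteins Apoa2 (1.04, adjusted p = 0.0134) and Apob (0.70, 0.0030) were higher in Ly6C-low microglia than in monocytes. These 2 of 9 stood against 6.8% of all genes, and 0 were lower there (7.71%). In Ly6C-high microglia 0 were higher than in monocytes, and 2, Apoa2 and Trf, were lower, against 6.88% and 14.6% of all genes. Between the brain sorts 0 were higher and 3 lower in Ly6C-high microglia, against 4.49% and 11% of all genes. Apoa2 (-1.76, adjusted p = 9.99e-04) and Apob (-0.44, 0.0268) were among the lower ones. Albumin (Alb), picked after its values were seen, lay between 4.46 and 4.85 in all 9 arrays. Limma called 0 of 8 pigment epithelium markers in any comparison, against 15.4%, 21.5% and 14.5% of all genes. At an unadjusted p under 0.05 the counts were 2, 1 and 2 of 8, against 28.2%, 37.8% and 25.6% of all genes.

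**Figure D3:**
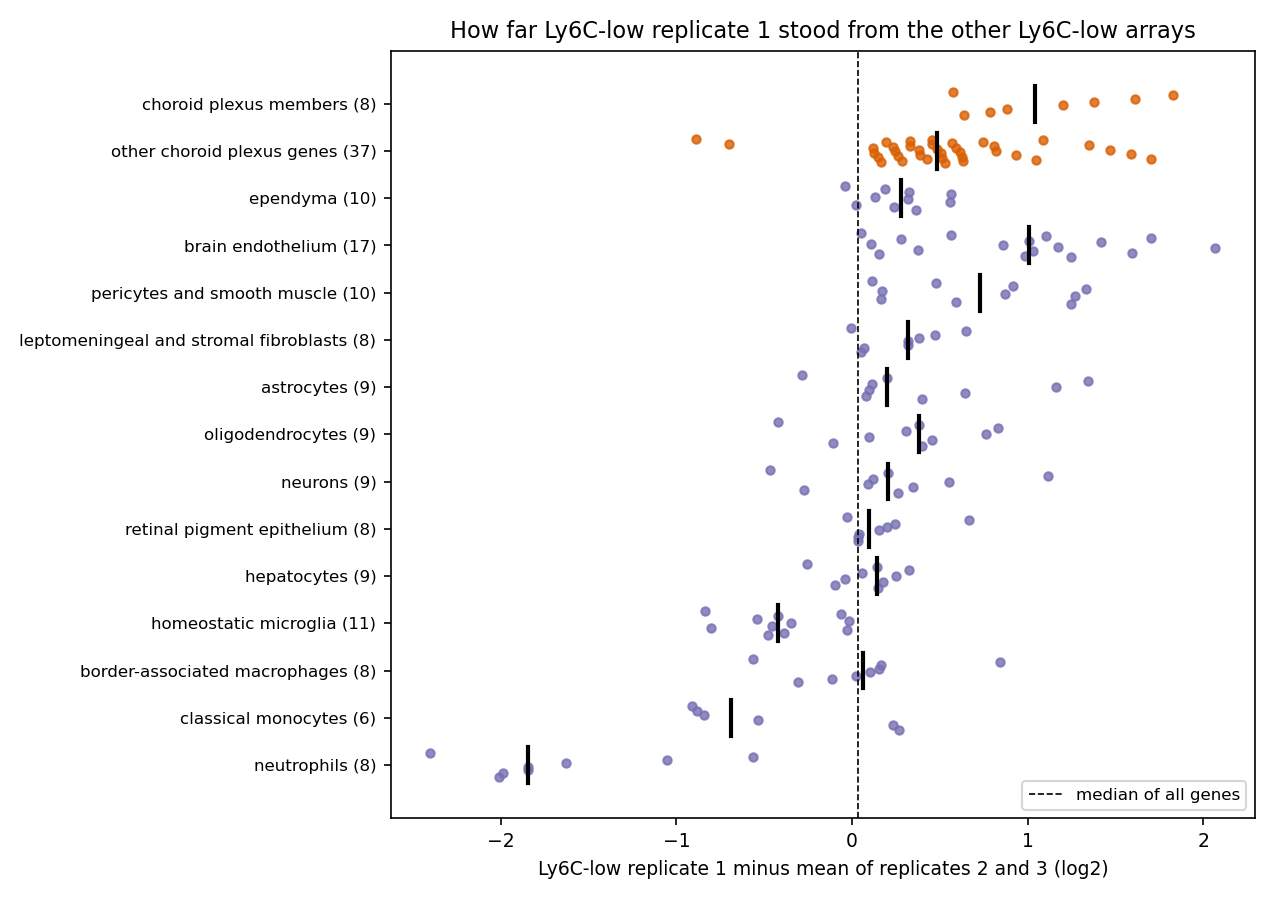
Log2 intensity of Ly6C-low replicate 1 minus the mean of Ly6C-low replicates 2 and 3 (horizontal axis), with a point per gene, the number of measured genes in brackets and a black bar at each list's median. The medians of the 8 choroid plexus genes (1.04), the 37 other choroid plexus genes (0.48) and the 17 brain endothelium genes (1.01) lie right of the median of all genes (0.03, dashed), and those of homeostatic microglia (-0.42) and neutrophils (-1.85) left of it.

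A longer list of 37 further measured choroid plexus genes gave the same picture in that array. Of the 37 genes 22 were highest of all 9 arrays in Ly6C-low replicate 1, against 9.49% of all genes, and 35 were highest there among the Ly6C-low arrays. The count of 22 was 16 with quantile normalization, 17 with cyclic loess and 19 with median centring. The cation channel Trpm3 measured 7.21, 5.65 and 5.59 in Ly6C-low replicates 1, 2 and 3, 5.59 to 5.68 in Ly6C-high and 5.25 to 5.31 in monocyte arrays. Slc4a10, a bicarbonate transporter, measured 6.71, 5.24 and 5.24 in the Ly6C-low replicates, 5.22 to 5.53 in Ly6C-high and 4.80 to 5.01 in monocyte arrays. In both genes a single array stood out. Trpm3 and Slc4a10 were picked for this after their values were seen.

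Against monocytes, 8 of the 37 genes were higher and 2 lower in Ly6C-high microglia, where 6.88% and 14.6% of all genes were. In Ly6C-low microglia 6 were higher and 2 lower, against 6.8% and 7.71% of all genes. The list medians were 0.36 and 0.39, against 0.09 and 0.05 over all genes. Ecrg4, which encodes the secreted peptide precursor augurin, rose by 2.28 ± 0.46 (adjusted p = 0.0100) and by 2.29 ± 0.46 (adjusted p = 0.0115), and the latter call ended without monocyte replicate 2 (0.0504). It measured 7.56, 7.84 and 8.07 in Ly6C-high, 8.96, 7.58 and 6.94 in Ly6C-low and 5.49, 5.13 and 6.00 in monocyte replicates, with no overlap between brain and monocyte arrays. Ace, the angiotensin-converting enzyme, fell by 2.77 and 2.90 on the log2 scale, and F5, coagulation factor V, fell by 2.16 and 2.75. Both are also expressed outside the plexus, and what such expression adds for any gene of this list, rising or falling, was not tested. Stra6, the retinol uptake receptor, and Msx1, a homeobox factor, rose in Ly6C-high microglia by 1.67 ± 0.27 (adjusted p = 0.0036) and 1.34 ± 0.16 (8.42e-04). Igf2 rose there by 1.20 ± 0.36 (adjusted p = 0.0475), a call lost in 9 of 19 alternatives, among them without any single Ly6C-high or monocyte replicate and without Ly6C-low replicate 2 (adjusted p 0.0596 to 0.135). Slc12a2, the sodium, potassium and chloride cotransporter NKCC1, rose in Ly6C-low microglia by 2.65 ± 0.42 (adjusted p = 0.0035), and it was lowest in replicate 1 of the 3 Ly6C-low arrays, at 9.51 against 10.13 and 10.30. Rdh5, a retinol dehydrogenase, rose there by 0.99 ± 0.21 (adjusted p = 0.0127), a call that ended without monocyte replicate 2 (0.0531). Igfbp2 rose there by 1.05 ± 0.29 (adjusted p = 0.0470), a call lost in 8 of 19 alternatives, among them without Ly6C-low replicate 1 (0.69, adjusted p = 0.0596), Ly6C-low replicate 2 (0.0858), Ly6C-high replicate 3 (0.0623) or any monocyte replicate (0.104 to 0.137). The count of 10 in Ly6C-high microglia was 6 without monocyte replicate 2, and the count of 8 in Ly6C-low microglia was 5, 4 and 5 without monocyte replicates 1, 2 and 3.

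Between the brain sorts, 2 of the 37 genes were higher and 1 lower in Ly6C-high microglia, against 4.49% and 11% of all genes. Stra6 rose by 1.24 ± 0.27 (adjusted p = 0.0162) and Msx1 by 0.87 ± 0.16 (0.0081), and Slc12a2 fell by 2.15 on the log2 scale (0.0093). The Stra6 call ended without Ly6C-low replicate 2 (0.0609), without Ly6C-low replicate 3 (0.0675) or with only the 6 arrays compared (0.0558). None of these genes was highest in Ly6C-low replicate 1.

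Of 15 measured genes that handle thyroid hormone and retinol, the cargo of transthyretin, 6 were called between the brain sorts and 9 were not. In Ly6C-high microglia 3 were higher and 3 lower, against 4.49% and 11% of all genes, with a list median of 0.09 against 0.05. The higher ones were the organic anion and thyroxine transporters Slco1a4 (5.02 ± 0.63, adjusted p = 0.0011) and Slco1c1 (4.80 ± 0.39, 1.22e-04) and the amino acid transporter Slc7a5 (1.59 ± 0.16, 3.31e-04). The former pair is also in the brain endothelium list. The lower ones were Slc7a8 (-3.28 ± 0.26, adjusted p = 1.18e-04), of the same family as Slc7a5, the endocytic receptor Lrp1 (-2.83 ± 0.23, 1.18e-04) and the transporter Slc16a10 (-1.31 ± 0.17, 0.0015). Dio2, the enzyme that activates thyroxine in brain, stayed within 4.65 and 5.07 over the 9 arrays.

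Signalling partners and relatives of the measured genes were read from 2 further lists. Of 19 ligands, receptors and co-factors, 2 were higher and 4 lower in Ly6C-high than in Ly6C-low microglia, against 4.49% and 11% of all genes, with a median of 0.01. They were led by Plpp3, a phosphatase of lysophosphatidic acid (1.94 ± 0.35, adjusted p = 0.0060), and the proton-coupled folate transporter Slc46a1 (-1.61 ± 0.22, 0.0016). Slc46a1 rose in Ly6C-low microglia against monocytes by 2.02 ± 0.22 (adjusted p = 4.24e-04), where Folr1 differed by 0.64 (0.132). Of 19 family relatives 2 were higher and 1 lower in Ly6C-high microglia, against the same shares of all genes, with a median of 0.05. They were led by Clic5, a relative of Clic6 (9.82 against 6.23, log2 difference 3.59 ± 0.18, adjusted p = 1.48e-05). Clic4, another relative, rose by 1.48 ± 0.22 (adjusted p = 0.0025), while Clic6 differed by -0.46 ± 0.33 (0.401). Kcnj2, a potassium channel related to Kcnj13, was lower in Ly6C-high microglia (-1.21 ± 0.26, adjusted p = 0.0129), a call that ended without Ly6C-low replicate 2 (0.0519) or 3 (0.0531). It was higher in Ly6C-low microglia than in monocytes by 2.82 ± 0.26 (1.68e-04).

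The 8 genes whose pattern came nearest to Ttr were in neither choroid plexus list. Likeness was measured as the root-mean-square distance over the 9 arrays between values centred on each gene's own mean, among 18611 genes with no predicted or clone-based symbol. The nearest was Tjp1, which encodes the tight junction scaffold ZO-1, at a distance of 1.15. It measured 9.78, 9.97 and 10.52 in Ly6C-high, 9.57, 9.58 and 9.67 in Ly6C-low and 4.29, 4.79 and 4.86 in monocyte replicates. The next were the matrix protease Adamts1 (1.45), the secreted matrix protein Sparcl1 (1.68), the matrix Gla protein Mgp (1.78), the adhesion receptor Adgrl2 (1.78), Lhfpl2 (1.83), Tcim (1.86) and the sialomucin Cd34 (1.88). All 8 are high in both brain sorts and low in monocytes, as the choice of Ttr implies. Of the other choroid plexus genes, Sostdc1 was number 154 at a distance of 2.77, Kl 668, Clic6 1585, Kcnj13 1807, Folr1 1843 and Otx2 3085, and Aqp1 was number 17591. The distance depends on the size of a change as well as its shape, so genes that changed little cannot rank near Ttr. Their Pearson correlations with Ttr over the 9 arrays were 0.79 for Sostdc1, 0.62 for Kl, 0.59 for Otx2 and 0.54 for Folr1. They were 0.49 for Clic6, 0.42 for Kcnj13 and -0.785 for Aqp1. Genes were also ranked by Pearson correlation, but only the 1252 whose group means spanned at least 2 on the log2 scale, which left out 6 of the 7 other choroid plexus genes. Tjp1 was again first, 3 of the 8 genes were shared, and Sostdc1 was number 82. The 9 arrays fall into 3 groups, and the arrays of a group share its tissue and sort.

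**Figure D4:**
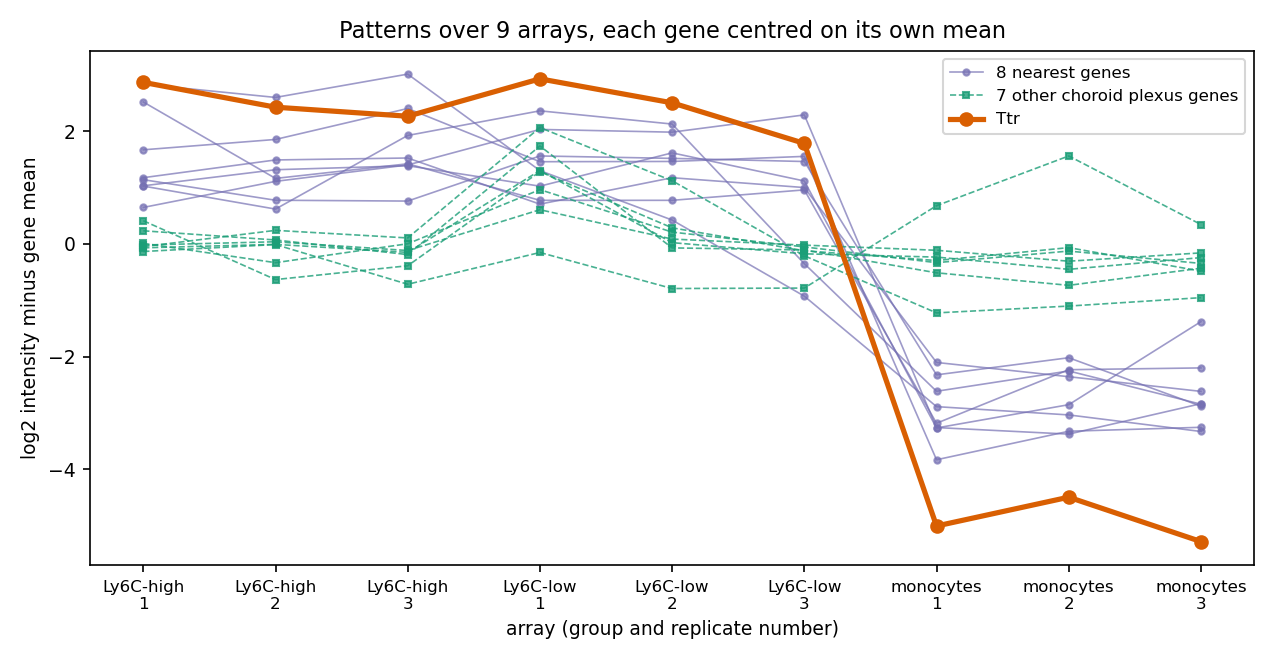
Log2 intensity minus the gene's own mean (vertical axis) in each of the 9 arrays, for Ttr (thick line), the 8 genes nearest to it (solid lines) and the 7 other choroid plexus genes (dashed). Ttr and its 8 nearest genes step down from the brain arrays to the monocytes, while most dashed lines stay near 0 and peak in Ly6C-low replicate 1; Aqp1 is the dashed line that is highest in monocytes.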

How the data were processed

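RNA of sorted cells was hybridised to 9 Affymetrix whole-transcript arrays, 3 per group. The authors deposited log2 intensities per probe set; the submitters' processing notes list oligo and RMA, with settings and versions not given in the sources used here. RMA compresses differences of dim genes. Of 34760 probe sets 21640 had 1 gene symbol in the platform annotation, 1321 several and 11799 none. The brightest probe set per gene by mean over 9 arrays was kept, which left 19937 genes. Values were used as deposited. Group means were fitted to all 9 arrays with lmFit and eBayes of limma 3.58.1 (R 4.3.3), with 2-sided tests and Benjamini-Hochberg adjustment over all genes at 0.05, and was tested on simulated data. Every adjusted p is from limma. Alternatives covered scaling, a filter on low values (a group mean of at least 6.13, the median of gene means, passed by 5 of the 8 measured genes and not by Kl, Clic6 or Otx2), probe set averaging, blocks, weights and leaving out each array. Precision is limited by having 3 arrays a group.

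The genes and lists were chosen with earlier results of these data known. The text names all measured choroid plexus genes, up to 6 called members of each other list by size of change, and the 8 genes nearest to Ttr by distance. Trpm3, Slc4a10, Dio2, Alb, Gigyf2, Xist and Eif2s3y, and those in the last part of the closing section, were chosen after their values were seen. Some list genes were not analysed here.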

Additional observations from a re-analysis of the deposited data

How the results depend on the processing

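Without a single array, the count of genes called between the brain sorts (3080) ran from 1956 to 3888, the lowest without Ly6C-low replicate 3, and was 2038 with only the 6 arrays compared. Among the 7 choroid plexus genes other than Ttr it ran from 0 to 1, and in the longer list from 2 to 4, with 6 under cyclic loess. For Ly6C-high microglia against monocytes the counts ran from 2505 to 6091 (4290 in all), from 0 to 3 of 7 (0 under quantile normalization and under cyclic loess) and from 6 to 11 of 37. For Ly6C-low microglia they ran from 1864 to 3778 (2894 in all, 5738 with array weights, 4614 with only the 6 arrays), from 0 to 2 of 7 and from 4 to 10 of 37. The cause was not tested. Quantile normalization and cyclic loess raised the share of higher calls from 29.1% to 41.7% and 43.9% between the brain sorts, and from 32% to 46.4% and 45% for Ly6C-high microglia against monocytes. Directions that turned, none of a called gene, were those of Ttr (-0.20 to 0.38 without single arrays), Kl (-0.80 to 0.13) and Clic6 (-0.74 to 0.0009) between the brain sorts. Against monocytes in Ly6C-high microglia they were those of Kcnj13 (-0.23 to 0.29 without single arrays, -0.13 with array weights) and Otx2 (-0.035 with quantile normalization, -0.036 with cyclic loess). The Ttr difference from monocytes was 7.24 to 8.16 in Ly6C-high and 7.07 to 7.64 in Ly6C-low microglia over 19 alternatives each. With the replicate number of the titles as a block, 0 of 7 choroid plexus genes were called between the brain sorts, and 1 and 2 of 7 against monocytes, as without it. Same-numbered brain arrays 1, 2 and 3 deviated from their group means with correlations of 0.30, 0.15 and -0.03. The numbers in the sample descriptions are shared by 2 pairs of brain arrays. These pairs are Ly6C-high 1 with Ly6C-low 1 (0.30, the same pair as in the titles) and Ly6C-high 2 with Ly6C-low 3 (0.21). Whether paired arrays share animals is not stated and was not tested. With the description numbers as a random block (estimated correlation 0.29), again 0, 1 and 2 of 7 genes were called, and over all genes 3936, 4286 and 2937. With 3 dim genes (Kl, Clic6 and Otx2), signal over background limits what can be seen.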

Other observations

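Among genes with no predicted or clone-based symbol, those farthest above the other Ly6C-low arrays in Ly6C-low replicate 1 were a mixed set, named here after their values were seen. Ptgds, which encodes a prostaglandin D synthase known from leptomeninges and choroid plexus, measured 9.98, 7.89 and 8.11 in Ly6C-low replicates 1, 2 and 3. It measured 8.33, 8.91 and 7.74 in Ly6C-high and 6.71 to 6.85 in monocyte arrays, with Ly6C-low replicate 1 the highest, and ranked 11 of 19937 by its excess of 1.98. Xist, with an excess of 2.46 that ranked 3, was high in Ly6C-low replicates 1 and 2 and low in replicate 3 (9.97, 10.76 and 4.26). Gkn3, known from arterial endothelium, measured 8.15, 5.92 and 4.99 in the Ly6C-low and 7.13 to 7.92 in the Ly6C-high arrays, an excess of 2.69 that ranked 2. The endothelial phosphatase Ptprb measured 9.24, 7.88 and 6.28 in the Ly6C-low arrays and 10.26 to 11.05 in the Ly6C-high arrays (excess 2.16, rank 6). Ptprb was below all Ly6C-high arrays in Ly6C-low replicate 1, unlike Ptgds and Gkn3. Slco1a4, of the brain endothelium list, had an excess of 2.07 (rank 8) and was likewise below all Ly6C-high arrays in Ly6C-low replicate 1. Non-coding RNAs were among the set too. Farthest above of all genes was the microRNA probe set Mirlet7a-2 (excess 3.14, rank 1). Others were the microRNA probe sets Mir24-2 (2.20) and Mir27a (2.15), and the RNA component Rmrp (1.99), which has no cell type of its own.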
